A study of Magallana hongkongensis with 2 samples.

Results

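Transcripts named after the zymogen granule membrane were followed in gill tissue of Hong Kong oysters (Magallana hongkongensis, named Crassostrea hongkongensis in the labels), bivalves of estuaries. They are the assembled transcripts ("unigenes") whose deposited description contains the words zymogen granule or pancreatic secretory granule membrane. This gave 3 unigenes of the 21226 listed in either library, and all 3 had reads in both libraries. The words choose by name, but the group was also chosen by the read counts of Unigene0000004, already known to be high and to differ between the libraries, so its levels and its ratio are a description.

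The study asks which genes respond to heat, and it has 2 libraries of polyadenylated RNA, 1 per group. Wild adults of undetermined sex were first held for 2 weeks in aerated, sand-filtered seawater and fed 2 algae, Tetraselmis suecica and Isochrysis galbana. The control oysters stayed in seawater at 23 °C, whereas the heat-shocked oysters spent 1 h at 37 °C and were then put back at 23 °C. The heat-shocked library was made from the mixed gill of 10 oysters. Neither the pool size of the control library nor the time from the return to 23 °C until sampling is stated in the labels. There are no replicates, so every interval below is an exact 95% interval for counting error alone, every difference is one between these 2 libraries, and no p-value was computed. In a bulk library, fewer cells of a type and less RNA per cell cannot be told apart.

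In the mammalian pancreas, zymogen granules store digestive enzymes until they are released into the gut. Their membrane carries the glycoprotein GP2, which is anchored by a lipid, is shed with the secretion and, in the gut of mammals, binds bacteria. GP2 belongs to the proteins with a zona pellucida (ZP) domain, a module through which extracellular proteins assemble into filaments and matrices; its close relative uromodulin does so in mammalian urine. Bivalves have no pancreas, and their digestive enzymes are made mainly in the digestive gland, so a name of this kind on a gill transcript reports a sequence match and not a known function in oysters.

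The names of the 3 unigenes come from very different sources. Unigene0000004, 2524 bases long, is described as a zymogen granule membrane glycoprotein from Polysphondylium pallidum PN500, which is a slime mould. It was the best match that the deposited annotation gave, and no pathway or Gene Ontology term accompanies it. Unigene0015495, 2528 bases long, and Unigene0022607, 1005 bases long, are both described as the pancreatic secretory granule membrane major glycoprotein GP2 of the Pacific oyster (Crassostrea gigas), a close relative. Matches to the Pacific oyster made up 77.1% of all listed unigenes, and 17 listed unigenes were matched to Polysphondylium. Unigene0015495 alone carries Gene Ontology terms, among them membrane-bounded organelle, microtubule cytoskeleton, binding and intracellular signal transduction. The cytoskeleton and signal transduction terms differ from what is known of mammalian GP2, a protein of granule and cell surfaces. The name of Unigene0000004 could not be checked against its sequence here, so it is called by its identifier.

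The control-labelled library held 3.93 M uniquely mapped reads over 20824 unigenes and the heat-labelled library 4.17 M over 20751. Heat shock proteins, the standard markers of heat, were far more abundant in the control-labelled library, against the labels, so each library is named by its label and no more is assumed. Over all 17364 unigenes with at least 20 reads (called tested below), the median log2 ratio of heat shock label over control label was 0.17, and TMM scaling shifted it by -0.16 to 0.01.

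Unigene0000004 was one of the most abundant transcripts of the control-labelled library. It stood lower in the heat-labelled library, where it still ranked 647 of 20751 by RPKM. It had 18498 reads in the control-labelled library and 1475 in the heat-labelled library. Per length, this was 1867 RPKM (reads scaled by transcript length and library total; 95% interval 1840 to 1894) in the control-labelled library. In the heat-labelled library it was 140.03 RPKM (133 to 147). The control-labelled library thus stood 13.3-fold higher (12.6 to 14.1).

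Unigene0015495 had 154 reads in the control-labelled library and 155 in the heat-labelled library, close to equal. Its levels were 15.5 RPKM (13.2 to 18.2) and 14.7 RPKM (12.5 to 17.2). The ratio of control label over heat shock label was 1.06, with an interval of 0.840 to 1.33 that includes no difference and leaves out a difference of 2-fold. The second unigene with the GP2 description, Unigene0022607, had 9 reads against 3. Its levels were 2.28 RPKM (1.04 to 4.33) and 0.715 RPKM (0.148 to 2.09), near the bottom of what these libraries can measure. The ratio of 3.19 had an interval of 0.796 to 18.3, so a difference was not detectable at this depth. Only Unigene0000004 of the 3 therefore had different levels beyond counting error.

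**Figure D1:**
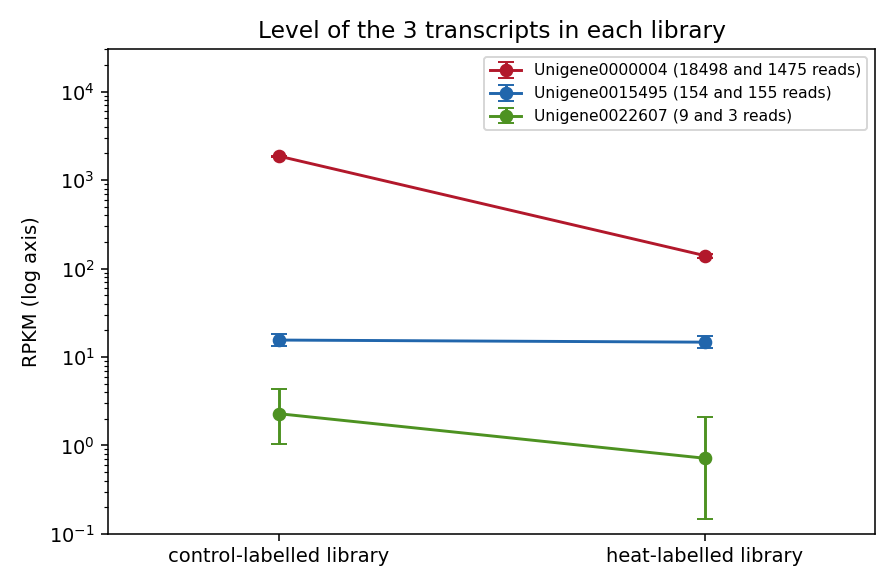
Level of each of the 3 unigenes, in RPKM on a log axis, in the control-labelled library and the heat-labelled library; bars are exact 95% Poisson intervals, 1 library per group. Unigene0000004 is at 1867 and 140.03 RPKM, Unigene0015495 at 15.5 and 14.7 RPKM, and the wide intervals of Unigene0022607 overlap.

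A unigene was called when its reads over both libraries came to 20 or more, its levels differed at least 2-fold either way, and the interval of the ratio left out 1. Of the 3 unigenes 2 passed the minimum, and 1 of these, Unigene0000004, was called higher in the control-labelled library. Among all tested unigenes 564 were called in that direction, 3.25%, and 690, 3.97%, in the other. With TMM scaling these shares were 4.37% and 2.34%, with the median of ratios 4.38% and 2.33%, and Unigene0000004 was the call among the 3 with each. Nothing can be read from 1 call in 2, because Unigene0000004 was included for its known difference. The log2 ratios of heat shock label over control label of the tested unigenes were -3.74 for Unigene0000004 and -0.08 for Unigene0015495. Their median is merely the midpoint of that pair, -1.91, beside the 0.17 of all tested unigenes.

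The order of the 3 by RPKM was the same in both libraries, with Unigene0000004 highest and Unigene0022607 lowest. The distance between them was not. In the control-labelled library Unigene0000004 stood 120-fold above Unigene0015495 (interval 103 to 142), and in the heat-labelled library 9.53-fold above it (8.07 to 11.3). Unigene0015495 stood 6.80-fold above Unigene0022607 in the control-labelled library (3.49 to 15.2) and 20.5-fold above it in the heat-labelled library (6.90 to 101). Each neighbour in the order thus differed beyond counting error in each library. Summed, the 3 unigenes took 0.475% of the reads of the control-labelled library (exact binomial interval 0.469 to 0.482%) and 0.0391% of those of the heat-labelled library (0.0373 to 0.0411%). Unigene0000004 supplied 99.1% and 90.3% of these reads. The summed reads were 12.1-fold higher in the control-labelled library (11.5 to 12.8). Without Unigene0000004 the sums were 163 and 158 reads, a ratio of 1.10 (0.876 to 1.37), so the difference of the sum rests on that 1 transcript.

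By RPKM, Unigene0000004 ranked 38 among the 20824 unigenes of the control-labelled library. By reads, without regard to length, it ranked 16. Its neighbours by RPKM were 6 ribosomal proteins, which build the protein-making machinery and are among the most expressed genes of most cells. The 3 next above were 60S ribosomal protein L3 (Unigene0010317, 1966 RPKM), ribosomal protein S6 (Unigene0024740, 1942 RPKM) and 60S ribosomal protein L5 (Unigene0021646, 1887 RPKM). The 3 next below were 60S ribosomal protein L23a (Unigene0027810, 1852 RPKM), ribosomal protein L19 (Unigene0027043, 1789 RPKM) and 40S ribosomal protein S4, X isoform (Unigene0024194, 1704 RPKM). In the heat-labelled library these 6 had 1587 to 1994 RPKM, whereas Unigene0000004 had 140.03.

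In the heat-labelled library, Unigene0000004 ranked 647 of 20751 by RPKM and 370 by reads. There its neighbours were of mixed kinds. Next above were Blastula protease 10 (Unigene0024438, 140.2 RPKM), Serine/arginine repetitive matrix protein 1, of a family involved in splicing (Unigene0002749, 140.2 RPKM), and a peptidyl-prolyl cis-trans isomerase-like 6-like protein (Unigene0022483, 140.3 RPKM). Next below were AMY-1-associating protein expressed in testis 1 (Unigene0032046, 140.01 RPKM), Zinc finger protein GLIS3 (Unigene0022727, 139.8 RPKM) and Nucleosome assembly protein 1-like 4, a histone chaperone (Unigene0006280, 138.8 RPKM). None of these 6 was called between the libraries, and their ratios of control label over heat shock label lay between 0.672 and 1.18. Unigene0015495 ranked 7573 and 8568, and Unigene0022607 ranked 17943 and 19906.

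**Figure D2:**
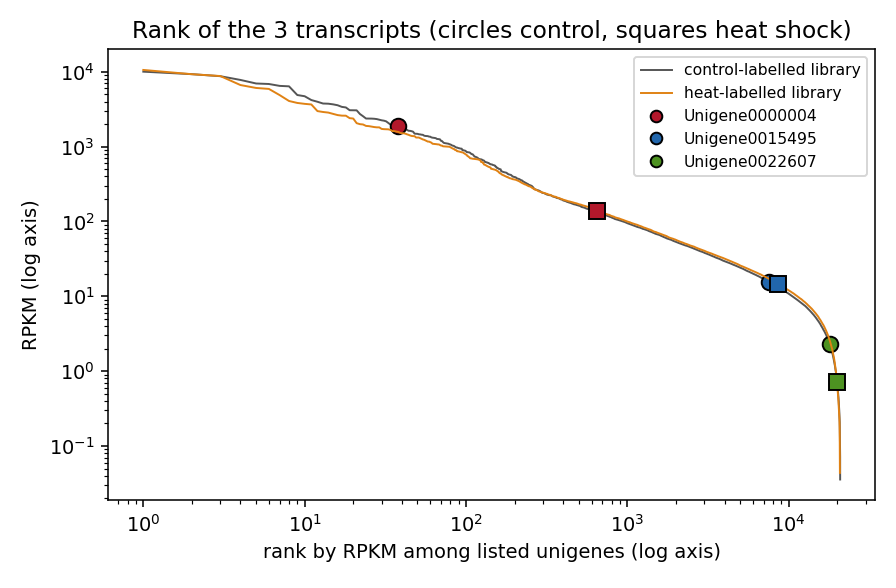
RPKM of every listed unigene against its rank by RPKM, both on log axes, in the control-labelled library (grey line) and the heat-labelled library (orange line); circles mark the 3 unigenes in the former and squares in the latter. Unigene0000004 moves from rank 38 to rank 647 along nearly the same curve, while Unigene0015495 moves from 7573 to 8568.

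The gap in the share of reads between the libraries places Unigene0000004 among the main differences of the whole data set. It took 0.471% of the reads of the control-labelled library (0.464 to 0.478%) and 0.0353% of those of the heat-labelled library (0.0336 to 0.0372%), a gap of 0.436 percentage points. This gap was the 7th in size of all unigenes in that direction. The unigenes called higher in the control-labelled library together took 11.2% of its reads, and Unigene0000004 alone made up 4.21% of those. The 6 unigenes with wider gaps, named after their values were seen, were described as chaperones or stress proteins. They ran from HSP90 (Unigene0015010, 1.298 percentage points) through HSP70 (Unigene0005548, 1.04) and Stress-induced protein 1 (Unigene0020553, 0.783) to HSP70 B2 (Unigene0016013, 0.502).

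By ratio, Unigene0000004 ranked 28 among the 17364 tested unigenes and 14 among the 1422 with at least 1000 reads over both libraries. Of the 13 abundant unigenes ahead of it, all but 1 were described as chaperones, stress proteins or their partners. The exception was a hypothetical protein, CGI_10021124 (Unigene0031808), with 2086 and 132 reads, a ratio of 16.8 (14.1 to 20.2). The unigenes nearest to it in this order, chosen after their values were seen, were an HSP70 at 13.5-fold (Unigene0005548, 13.04 to 13.97) and an Alpha-crystallin B chain, a small heat shock protein, at 12.8-fold (Unigene0002162, 11.4 to 14.4). Both intervals overlap that of Unigene0000004, so their order is not resolved. With 2 libraries, nearness in a ratio is no measure of a shared pattern, and no likeness across samples could be measured.

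**Figure D3:**
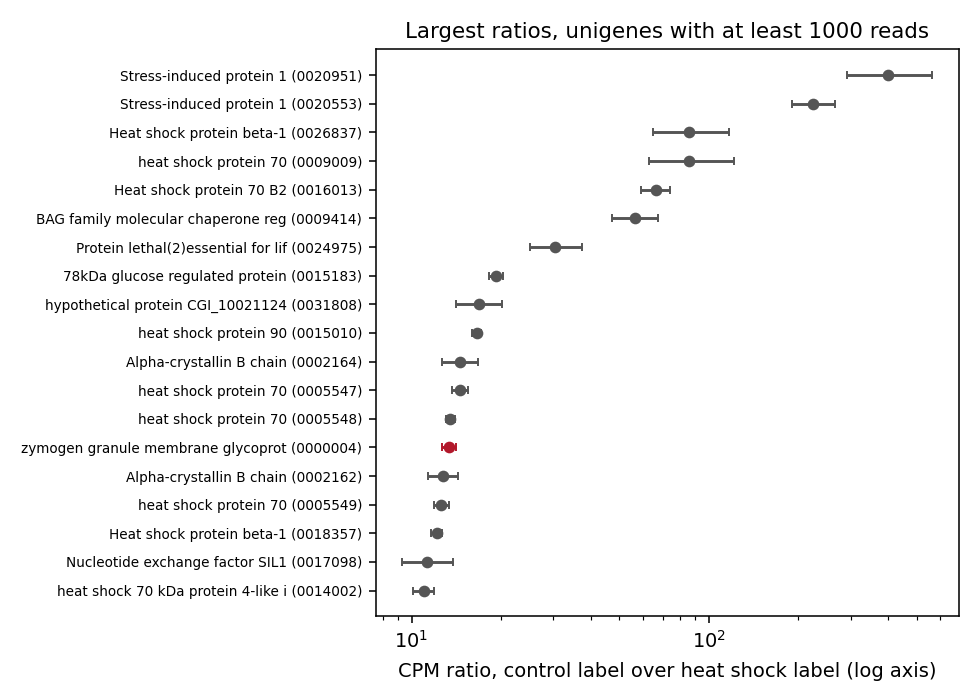
The 19 largest CPM (reads scaled to the library total) ratios of control label over heat shock label among the 1422 unigenes with at least 1000 reads, on a log axis, with exact 95% intervals for counting error and the last digits of each identifier. Unigene0000004, in red, is 14th in the order, between an HSP70 and an Alpha-crystallin B chain whose intervals overlap its own.

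**Figure D4:**
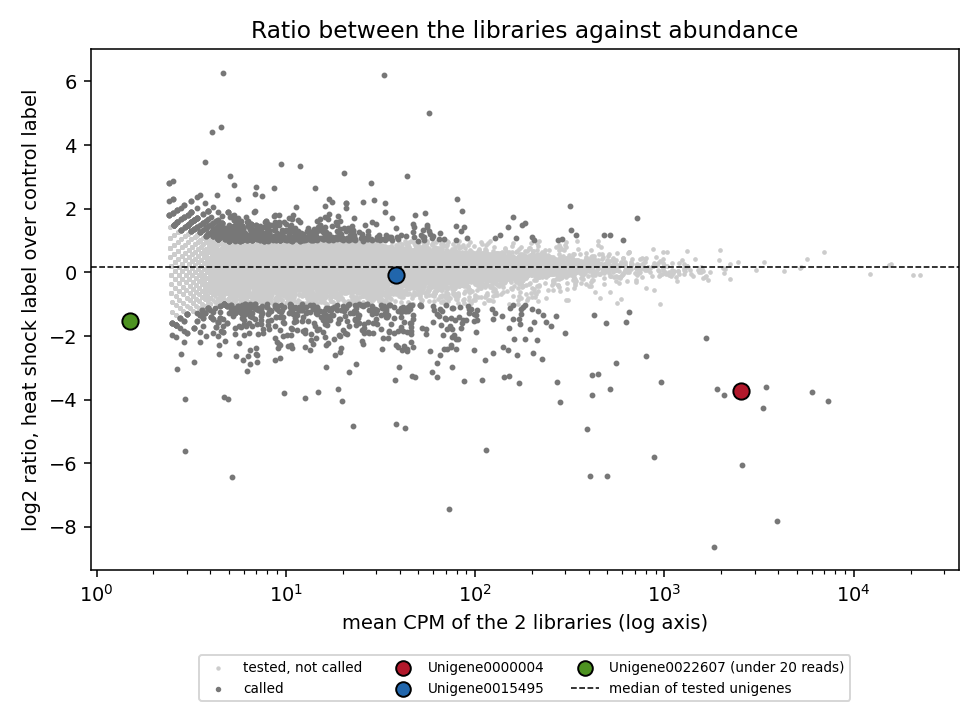
Log2 ratio of heat shock label over control label against the mean CPM of the 2 libraries (log axis) for the 17364 tested unigenes, called ones in dark grey, with the 3 unigenes in colour and the median of tested unigenes, 0.17, dashed. Unigene0000004 lies at -3.74, in the sparse lower right among abundant transcripts, and Unigene0015495 at -0.08 lies inside the main cloud.

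Reads covered most of each longer unigene. A unigene with 1 read had a median of 49.0 covered bases, the length that 1 read contributes. In the control-labelled library, reads covered 94.37% of Unigene0000004, which left 142 bases without a uniquely mapped read. In the heat-labelled library they covered 90.97% and left 228 bases. Of the 523 unigenes with at least 1000 reads in the control-labelled library, 35.4% had lower coverage than Unigene0000004, and of the 621 in the heat-labelled library, 18.7% did, so its coverage lay within the range of abundant unigenes. At least some reads thus reached most of the length of Unigene0000004 in each library. The percent covered cannot show how evenly they lay, because 154 reads were enough to cover 89.91% of Unigene0015495. Whether most reads of Unigene0000004 lay on a short stretch was not tested. Whether the uncovered bases are shared with other unigenes, from which reads would not be counted as unique, was not tested.

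Coverage of Unigene0015495 was 89.91% in the control-labelled library and 82.12% in the heat-labelled library, with nearly the same number of reads. Unigene0022607 was covered over 360 bases, 35.82%, by its 9 reads, and over 137 bases, 13.63%, by its 3 reads. Whether Unigene0015495 and Unigene0022607 are pieces of 1 gene or separate genes cannot be told from the deposited values. Ordered by reads per covered base in place of RPKM, the 3 kept the same order in both libraries.

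The relatives of GP2 with a ZP domain in mammals had no call in the direction of Unigene0000004. Of 37 listed unigenes caught by the words uromodulin, zona pellucida, tectorin and deleted in malignant brain tumors (DMBT1, a mucosal protein built of scavenger receptor repeats), 21 were tested. Of these, 2 were called higher in the heat-labelled library and none in the control-labelled library. Over all tested unigenes 3.97% and 3.25% were called in these directions. At such shares, no call among 21 in the direction of Unigene0000004 is no result about the relatives. Their median log2 ratio of heat shock label over control label was 0.46, beside 0.17 for all tested unigenes, and they ranged from -0.72 to 1.78. The value of -0.08 for Unigene0015495 lay inside that range. Unigene0000004 was included for its known difference, so its ratio is not set against that range.

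Uromodulin, the closest mammalian relative of GP2, had 1 unigene (Unigene0025291) with 164 reads in the control-labelled library and 106 in the heat-labelled library. The ratio of control label over heat shock label was 1.65 (1.28 to 2.12), under the 2-fold rule. Zona pellucida sperm-binding protein 2, an egg coat protein in mammals (Unigene0003960), had 80 and 120 reads, 1.41-fold higher in the heat-labelled library (1.05 to 1.90). The other unigene of that list, a vitelline envelope zona pellucida domain protein (Unigene0011515), had 3 reads against 1, a ratio of 3.19 with an interval of 0.256 to 167. Alpha-tectorin, of the inner ear matrix in mammals (Unigene0028551), had 15 and 16 reads, a ratio of 0.997 (0.459 to 2.15). None of these 4 was called.

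DMBT1 made up most of the relatives, with 33 listed and 18 tested unigenes. Its most abundant unigene (Unigene0013489) had 1361 reads in the control-labelled library and 1514 in the heat-labelled library, a ratio of 0.956 (0.888 to 1.03). The next (Unigene0018953) had 722 and 540 reads, 1.42-fold higher in the control-labelled library (1.27 to 1.59), and the third (Unigene0017377) 525 and 597, a ratio of 0.935 (0.830 to 1.05). The 2 called unigenes were Unigene0009589, with 33 and 122 reads, and Unigene0011111, with 55 and 132. These were 3.48-fold (2.35 to 5.28) and 2.26-fold (1.64 to 3.15) higher in the heat-labelled library. The 33 unigenes may be pieces of fewer genes. No unigene was caught by the words for jacalin-like lectins, the family of another zymogen granule protein of mammals, ZG16, or for the vitelline layer.

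Unigenes caught by words for the machinery that docks and fuses secretory granules were examined next. Of 61 tested unigenes of syntaxins, synaptotagmins, vesicle-associated membrane proteins and their partners, 1 was called in each direction, and the median log2 ratio was 0.19. Among all tested unigenes, 3.25% were called higher in the control-labelled library and 3.97% in the other. At such shares, 1 call in each direction among 61 is no result about this machinery. Synaptosomal-associated protein 25, a fusion protein (Unigene0016946), had 681 and 675 reads, a ratio of control label over heat shock label of 1.07 (0.963 to 1.20). The calls were Syntaxin-6, which serves the trans-Golgi network (Unigene0010470, 227 and 512 reads), and an unc-13-like protein A, a priming factor (Unigene0027149, 20 and 9 reads). Mucins are the gel-forming glycoproteins of mucus. The unigenes caught by that word had 4 of 52 tested unigenes called higher in the heat-labelled library and none in the other, with a median of 0.27. The most abundant of them (Unigene0023517, 807 and 815 reads) and 1 of the called ones (Unigene0020024, 132 and 304 reads) have their best match in a protist parasite, Cryptosporidium parvum, so their name says little about oyster mucus. Over all tested unigenes 3.97% were called in the direction of these mucins. With TMM scaling 2 of the mucin calls were left. Syntaxin-6 was then no longer called, and Synaptotagmin-15 (Unigene0021398, 32 and 18 reads) was called higher in the control-labelled library beside the unc-13-like protein A.

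Because zymogen granules belong to digestive cells, digestive enzymes were examined as markers of digestive gland in the gill dissection. The word list had 45 tested unigenes, and the median log2 ratio was 0.31. Among all tested unigenes, 3.25% were called higher in the control-labelled library and 3.97% in the other. Of the 45, 2 were called higher in the control-labelled library and 1 in the other. The 2 were unigenes of intestinal Maltase-glucoamylase, a sugar-cutting enzyme of the gut surface in mammals, with 369 and 169 reads (Unigene0006419) and 37 and 12 reads (Unigene0021764). The unigenes of the full word list summed to 8398 and 10192 reads, 1.14-fold higher in the heat-labelled library (1.11 to 1.18). With TMM scaling this ratio of heat shock label over control label was 1.02. Its words also caught trypsin and elastase inhibitors and tubulin polyglutamylases. With the list restricted to digestive enzymes, as decided once its members had been looked at, 25 unigenes were listed, 9 were tested, and both calls were the Maltase-glucoamylase ones. The restriction also left out cathepsin L, a planned word with 7 listed unigenes and 2963 and 3620 reads. Together the 25 had 800 reads in the control-labelled library and 651 in the heat-labelled library, 1.31-fold higher in the former (1.18 to 1.45). This direction is opposite to that of the full word list. Unigene0006419 alone supplied 369 and 169 of these reads, so the ratio of the sum leans on that 1 unigene. The median log2 ratio of the 9 tested was 0.14. The other abundant members differed less or went the other way. Another Maltase-glucoamylase unigene (Unigene0022574) had 87 and 73 reads, a ratio of control label over heat shock label of 1.27 (0.918 to 1.75). Pancreatic lipase-related protein 1, a relative of the fat-splitting enzyme (Unigene0017699), had 126 and 148 reads. Carboxypeptidase B, a peptide-trimming enzyme (Unigene0018677), had 50 and 71, and Endoglucanase E-4, a cellulose-cutting enzyme (Unigene0011646), 36 and 52. Trypsin-1 (Unigene0024071) had 2 reads against 0, Alpha-amylase (Unigene0021622) 4 against 0, and alpha amylase A (Unigene0018232) 1 against 0. With none counted there, up to 3 reads (0.719 CPM) remain possible. The part of digestive gland in the result for Unigene0000004 was not tested. At 4712 and 353 CPM, Unigene0000004 had more reads than the 25 restricted unigenes together in each library. Against the full word list, it had more reads in the control-labelled library and fewer in the heat-labelled library.

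Markers of gill and of other tissues were examined with counts scaled to library totals. Unigene0000004 was included for its known difference, so its ratio is not set against theirs. The part of tissue content in the result for Unigene0000004 was not tested. Tektins, axonemal dyneins and other cilia markers made up 1.12% of the control-labelled library and 1.35% of the heat-labelled library. Of their 87 tested unigenes, 1 was called in each direction. With TMM scaling only the call higher in the control-labelled library, Intraflagellar transport protein 74-like protein (Unigene0016023), was left. Hemocyte words had none of 11 called and took 0.0661% and 0.0707% of the reads; their summed ratio of heat shock label over control label, 1.07, turned to 0.954 with TMM scaling. Adductor muscle words had 2 of 16 called, both higher in the heat-labelled library, and took 0.115% and 0.141%. Gonad words, which also caught the ciliary sperm-associated antigens, had none of 18 called and took 0.106% and 0.122%. The shares called over all tested unigenes were 3.25% higher in the control-labelled library and 3.97% in the other. At such shares, no call among 11 or 18 is no sign of equal tissue content. The words for food algae caught 3 unigenes described as Chlorophyllide a oxygenase. All 3 have their best match in the Pacific oyster and not in an alga, so they are no usable marker of algal RNA. They had 309 and 205 reads in all, and 2 of the 3 were called higher in the control-labelled library. Their summed reads were 1.60-fold higher there (1.34 to 1.92).

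The slime mould name prompted a look at the other unigenes whose best match is Polysphondylium or Dictyostelium, a list added after the data were seen. There were 31 besides Unigene0000004, of which 19 were tested. Of these, 1 was called higher in the control-labelled library and 2 in the heat-labelled library, and the median log2 ratio was 0.28. The shares called in these directions over all tested unigenes were 3.25% and 3.97%. With TMM scaling 1 of the 2 heat-labelled calls was left. The 3 most abundant were a calponin domain-containing protein (Unigene0002672, 279 and 341 reads), a sequence named ORF3 (Unigene0014428, 137 and 272 reads) and a lipopolysaccharide-induced TNF factor like protein (Unigene0005927, 107 and 181 reads). The 1 called in the direction of Unigene0000004 was a hypothetical GTP-binding protein (Unigene0024767) with 30 and 14 reads. Summed, the 31 had 1398 and 1917 reads and were 1.29-fold higher in the heat-labelled library (1.20 to 1.38), the direction opposite to Unigene0000004. With TMM scaling this ratio of heat shock label over control label was 1.15.

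**Figure D5:**
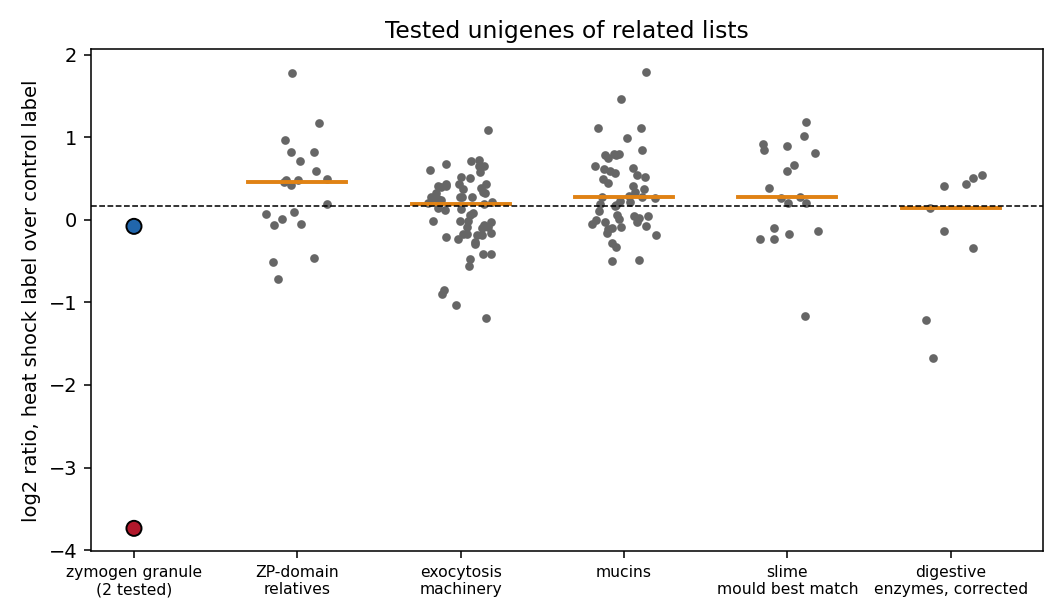
Log2 ratio of heat shock label over control label for tested unigenes: Unigene0000004 (red) and Unigene0015495 (blue), then each unigene of 5 lists as a grey point, with the list median in orange and the median of all tested unigenes, 0.17, dashed. Unigene0000004 is at -3.74 and was included for its known difference, so it is not set against the 5 lists. Unigene0015495 at -0.08 lies among their points.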

How the data were processed

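Per the file headers, a row gives for 1 unigene the authors' count of uniquely mapped reads, its length, the percent of the length covered, the RPKM and a description. The deposited counts are raw and sum to the library totals in the headers. The deposited RPKM equalled the counts divided by length and total, to a relative difference of 5.1e-15, and the deposited coverage percent was used as a description. CASAVA 1.4 and cutadapt 1.8.1 appear in the submitters' processing notes; the sources used here do not name the aligner or the assembly.

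Counts were scaled to library totals (CPM). Ratios have exact conditional binomial (Clopper-Pearson) 95% intervals, and RPKM values exact Poisson intervals; PCR copies are not independent molecules, so these cover counting error only. Log2 ratios used a prior count of 0.5. With 1 library per group no count test was run, and edgeR 4.0.16 supplied only TMM factors. Python 3.11.15, scipy 1.17.1 and pandas 2.3.3 were used. Alternatives were scaling by TMM factors or by the median of ratios, a read minimum of 100 or none, thresholds of 1.5-fold and 4-fold, wider intervals of 99.9%, and 5 as prior count. Members with at least 100 reads, the 3 RPKM neighbours on either side of Unigene0000004, and up to 3 abundant and 2 called unigenes of each context list were eligible to be named. Members and lists were chosen with earlier results of these data known.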

Additional observations from a re-analysis of the deposited data

How the results depend on the processing

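Unigene0000004 stayed the 1 called member with each of the 7 alternative call settings. Its ratio of control label over heat shock label was 14.9 with TMM factors and 14.97 with the median of ratios, and that of the summed reads of the 3 unigenes was 13.6 with either scaling (13.62 and 13.64). The sum without Unigene0000004, which is the same as the GP2 descriptions alone, gave 1.10, since that transcript holds nearly all the reads. The ratio of Unigene0015495 was 1.18 and 1.19 with the 2 scalings, and both intervals still included 1. Over all tested unigenes, 758 and 761 were called higher in the control-labelled library and 406 and 405 in the heat-labelled library with TMM factors and the median of ratios. The share of calls in each direction therefore depends on the scaling. The midpoint of the 2 log2 ratios was -2.07 with either scaling and -1.90 with a prior count of 5; with no minimum the median of the 3 is Unigene0022607 itself, at -1.52. No paired analysis was possible because each group has 1 library, and for the same reason no replicate could be left out. Depth limits Unigene0022607, whose 12 reads give a wide interval.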
